A study of Homo sapiens with 6 samples.

Results

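The stomatin family in humans comprises stomatin, encoded by STOM, and the stomatin-like proteins encoded by STOML1, STOML2 and STOML3. These 4 genes were followed among the 60499 Ensembl gene IDs of a total RNA-seq table, and all 4 symbols matched 1 ID each. The cells were H1, an established human embryonic stem cell line, kept in Nutristem medium that was changed daily. Wells were coated with laminin-521 alone (LN-521) or with laminin-521 and laminin-221 together (LN-521+LN-221, called the mixed coating below), and RNA was taken after 4 days, at confluence. Each coating had 3 wells, each sequenced as 1 library. The labels name a single cell line and no gene was altered in either group, so the wells share a genotype and laminin-521. The members were chosen by the difference in STOM expression between the coatings, so the STOM difference is a description here and carries no test. The other members were taken for their family name and not for their values.

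Stomatin-family proteins attach to a membrane from 1 side, most of them by a hydrophobic hairpin, and share a core called the SPFH or prohibitin-homology domain, through which they assemble into oligomers that bind cholesterol-rich membrane. Stomatin was found as a major integral protein of the red cell membrane, is missing from red cells in overhydrated hereditary stomatocytosis, and binds and modulates the glucose transporter GLUT1 and acid-sensing ion channels. STOML1 carries a sterol carrier domain and is found on late endosomes. STOML2 lies on the inner mitochondrial membrane, where it binds prohibitins and cardiolipin, and STOML3 tunes mechanically gated channels in sensory neurons.

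The 4 genes lie on the minus strand of 3 chromosomes. In GENCODE release 29 (GRCh38), STOM (ENSG00000148175) spans chr9:121338988-121370304, STOML2 (ENSG00000165283) chr9:35099776-35103195, STOML1 (ENSG00000067221) chr15:73978923-73994622 and STOML3 (ENSG00000133115) chr13:38965925-38991066. No exon of another annotated gene overlaps an exon of a member. The estimated counts of all 4 members were whole numbers, to within 1e-06 counts, in all 6 libraries, which gives no sign of reads split between a member and another gene.

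The sequence just upstream of the first annotated start is shown for the 3 members that passed the filter on low counts, because their values are the ones compared between the coatings. Each run is from RefSeq (GRCh38.p14), minus strand, 5′ to 3′, and stops before annotated exons of the member or of another gene. Capitals mark the GC box (GGGCGG) and the CCAAT box (CCAAT), on either strand. The STOM run is chr9:121370305-121370490, the STOML2 run chr9:35103196-35103445 and the STOML1 run chr15:73994623-73994672.
STOM: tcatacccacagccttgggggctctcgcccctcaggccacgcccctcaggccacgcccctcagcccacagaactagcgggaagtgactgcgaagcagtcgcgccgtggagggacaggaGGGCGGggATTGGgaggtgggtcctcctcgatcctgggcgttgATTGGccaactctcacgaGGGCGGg
STOML2: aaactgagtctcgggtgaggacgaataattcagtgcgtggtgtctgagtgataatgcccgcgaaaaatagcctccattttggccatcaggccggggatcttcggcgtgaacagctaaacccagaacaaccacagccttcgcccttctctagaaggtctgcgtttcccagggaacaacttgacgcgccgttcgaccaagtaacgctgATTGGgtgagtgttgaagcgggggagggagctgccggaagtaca
STOML1: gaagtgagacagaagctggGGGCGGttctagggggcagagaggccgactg

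The promoters of STOM and STOML1 were close in GC content and CpG ratio, while that of STOML3 stood apart. Over the 300 bases that RefSeq gives around the outermost start, the GC content was 69.0% for STOM, 64.0% for STOML1, 56.0% for STOML2 and 38.0% for STOML3, against a median of 58.7% over 35114 promoters. The ratio of observed to expected CpG was 0.648, 0.618, 0.875 and 0 in the same order, against a median of 0.579. The STOM window held 4 GC boxes and 3 CCAAT boxes, the STOML1 window 3 GC boxes and the STOML2 window 1 CCAAT box. A GC box was present in 45.0% and a CCAAT box in 34.6% of all windows. The STOML3 window had no CpG and no match to either box, but held 2 matches to the TATA box (TATAAA), which occurred in 11.5% of windows. The M-CAT element (GGAATG), bound by TEAD factors, matched 1 time each in STOM and STOML3, and occurred in 14.0% of windows. AP-1 (TGANTCA) and the E-box (CACGTG), found in 7.71% and 7.26% of windows, matched in none of the 4 members. Both strands were searched, none of the 6 motifs contains another, and a match says only that these letters are present.

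STOM was expressed at a moderately high level and was 1.76-fold higher on the mixed coating. Its TPM, the authors' value corrected for transcript length, was 45.4, 43.0 and 40.3 in the 3 wells on LN-521. On LN-521+LN-221 it was 74.9, 74.9 and 80.5. The groups did not overlap. These values rest on 2448, 3157 and 2653 estimated counts for LN-521 and on 3884, 4275 and 4880 for the mixed coating. As CPM, counts scaled by library size with edgeR's TMM factors, wells on LN-521 averaged 111 ± 7.0 and wells on the mixed coating 195 ± 9.94 (SD, n = 3 each). The lowest well on the mixed coating stood 1.58-fold above the highest well on LN-521. The log2 fold change was 0.82 ± 0.06 (SE). In bulk RNA, a larger share of cells with STOM and more STOM RNA per cell cannot be told apart.

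**Figure D1:**
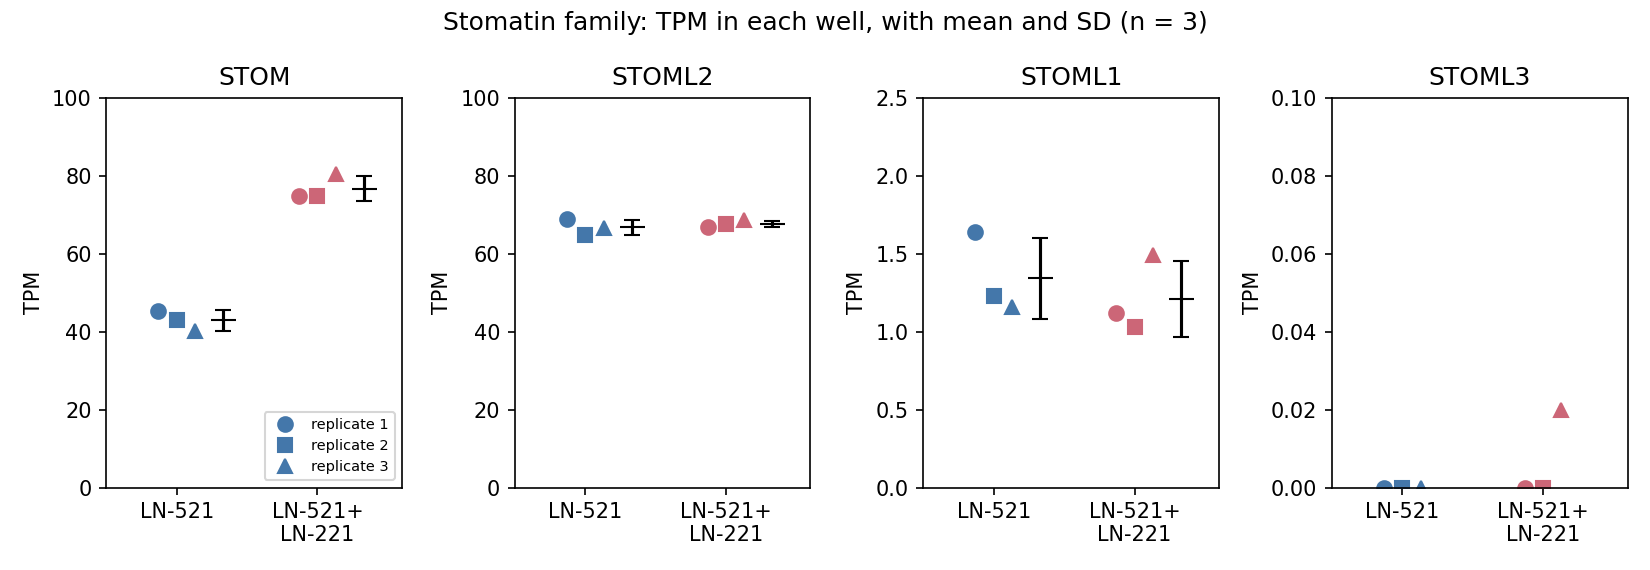
Authors' TPM of the 4 stomatin-family genes in each well (symbols: replicate number; blue: LN-521; red: mixed coating), with mean and SD of 3 wells in black except for STOML3; each panel has its own axis from 0. STOM lies at 40.3 to 45.4 TPM on LN-521 and at 74.9 to 80.5 TPM on the mixed coating, while the STOML2 and STOML1 wells overlap between the coatings.

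STOM was large in its change for a gene of its abundance. This follows from its choice by that difference, so the ranks and ranges below are a description. Among 2026 genes with a mean of at least 100 CPM, 5 had a higher log2 fold change, and among all 17608 genes tested 194 had, most of them at lower expression. By mean CPM it ranked 1193 of 17608. Its wells varied little within a coating, with a coefficient of variation of 6.33% on LN-521 and 5.10% on the mixed coating. The STOM log2 fold change lay between 0.77 and 0.87 in the 6 fits that each left out 1 library, and between 0.78 and 0.84 in the other alternatives. Without LN-521 replicate 1, which stood apart from the other wells on the second principal component (31.1 against -16.0 to 3.96 in the other 5 wells), it was 0.79.

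**Figure D2:**
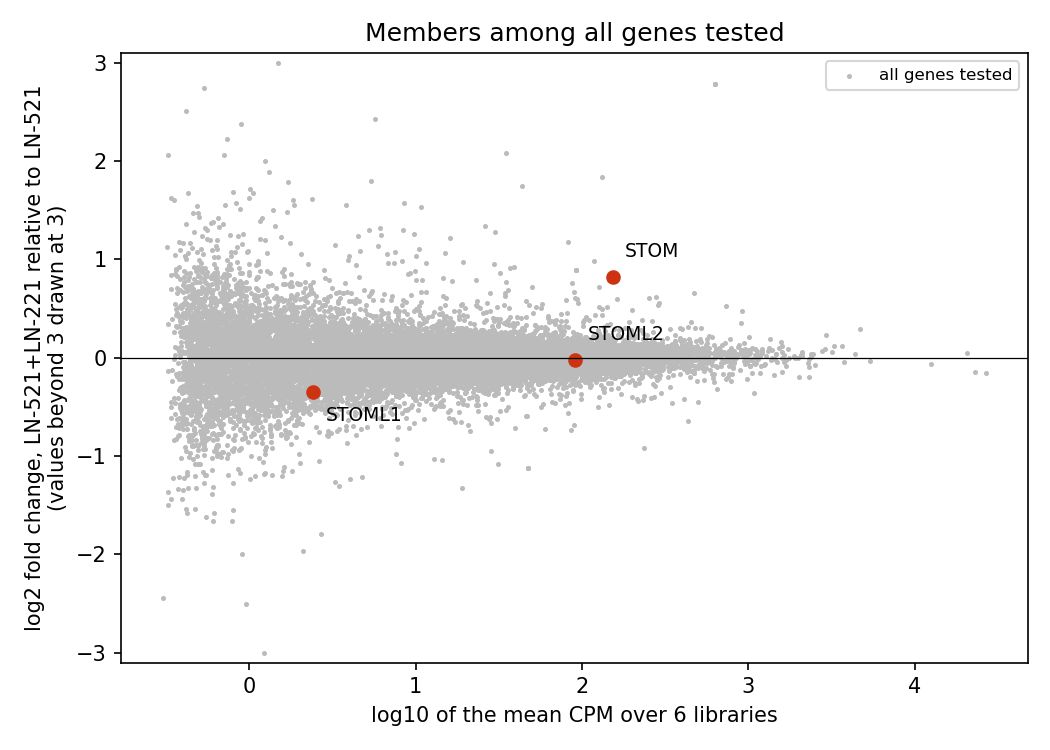
Mean CPM over 6 libraries (log10 axis values) against the log2 fold change of mixed coating over LN-521 for 17608 genes (grey), with the 3 tested members in red; values beyond 3 are drawn at 3. STOM (0.82), which was chosen for its difference, lies above nearly all genes of similar level. STOML2 (-0.03) lies in the middle of the cloud and STOML1 (-0.35) among low genes with a wide spread.

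STOML2, the mitochondrial member, had similar levels on both coatings. Its TPM was 68.8, 64.9 and 66.7 on LN-521 and 66.8, 67.7 and 68.6 on the mixed coating, so the wells of the coatings overlapped. In CPM the means were 91.6 ± 5.45 and 89.9 ± 5.28 (SD, n = 3 each). The log2 fold change of -0.03 ± 0.06 (SE) did not pass the threshold (edgeR quasi-likelihood test, Benjamini-Hochberg adjusted p = 0.902), and its sign changed between alternatives. Its 95% interval, from -0.16 to 0.11 on the log2 scale, corresponds to 0.894-fold to 1.08-fold.

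STOML1, the late endosomal member, was expressed at a low level. It had 57, 82 and 64 counts on LN-521 and 53, 42 and 47 on the mixed coating, or 2.71 ± 0.324 and 2.14 ± 0.360 CPM (SD, n = 3 each). In TPM the wells were at 1.64, 1.23 and 1.16 on LN-521 and 1.12, 1.03 and 1.49 on the mixed coating. Both scales overlapped between the coatings. The log2 fold change was -0.35 ± 0.20 (SE) and did not pass the threshold (edgeR adjusted p = 0.452). Its 95% interval ran from -0.76 to 0.07, which holds both a decrease of that size and no change. In the authors' TPM the difference was smaller, at -0.08 with log2(TPM + 1) (limma adjusted p = 0.937) and -0.14 with log2(TPM + 0.1) (limma adjusted p = 0.935).

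STOML3, the member of sensory neurons, was at the edge of detection. It had 0 counts in 5 libraries and 1 count in mixed-coating replicate 3, and it did not pass the filter on low counts. A count of 0 allows up to 3 counts in a library, or 0.112 to 0.146 CPM at these depths, a limit that covers counting error only.

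Of the 4 members, 3 therefore passed the filter, and that filter is not independent of level. Over all genes in the fit, 446 of 17608 (2.53%) passed the threshold, 1.4% higher and 1.14% lower on the mixed coating. The count of 446 was 1179 without LN-521 replicate 1, 201 without LN-521 replicate 3, and 290, 198 and 194 without replicates 1, 2 and 3 of the mixed coating. STOM was among those higher, which is why it was chosen, and neither other member tested was called. CPM did not overlap between the coatings for 19.9% of all genes tested, with 10.2% higher on the mixed coating, and for 1 of the 3 members, STOM, which was chosen for it.

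The balance within the family changed with the coating. This restates the STOM difference, by which the members were chosen, because STOML2 was similar on both coatings. STOML2 stood above STOM in TPM in each LN-521 well, and STOM stood above STOML2 in each well of the mixed coating. The order changed in TPM only, as STOM had more counts than STOML2 in every well. The STOM to STOML2 ratio of counts was 1.13 to 1.25 on LN-521 and 2.11 to 2.22 on the mixed coating. The STOM to STOML2 ratio of TPM within a library was 0.660, 0.663 and 0.604 on LN-521 and 1.12, 1.11 and 1.17 on the mixed coating. The summed TPM of the 4 genes was 111 ± 4.22 on LN-521 and 146 ± 4.28 on the mixed coating (SD, n = 3 each). STOM made up 38.6% ± 1.2 of that sum on LN-521 and 52.7% ± 0.699 on the mixed coating (SD, n = 3 each). STOML1 was lower than either gene in every well, with STOML2 at 42.0 to 65.7 times its TPM, and STOML3 was lowest. The TPM of STOM, STOML2 and STOML1 did not overlap with each other on either coating.

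Of the 4 nearest protein-coding neighbours of STOM on chromosome 9, 3 were tested and none passed the threshold. GSN, which encodes the actin-severing protein gelsolin, ends 6145 bases from STOM in RefSeq and is the nearest protein-coding gene. It was at 34.8, 43.99 and 35.8 CPM on LN-521 and 33.9, 33.8 and 33.7 CPM on the mixed coating, a log2 difference of -0.18 ± 0.09 (SE; edgeR adjusted p = 0.346). This value was -0.06 without LN-521 replicate 2, the well with the highest GSN level. The number of STOM counts per GSN count within a library was 2.70 to 3.06 on LN-521 and 5.52 to 6.12 on the mixed coating. The next gene on that side, RAB14, a small GTPase of endosomes, had means of 40.7 and 40.8 CPM (edgeR adjusted p = 0.985). On the other side, GGTA1 had 0 to 4 counts per library and was not tested, and DAB2IP, a GTPase-activating protein, had means of 41.1 and 41.0 CPM (edgeR adjusted p = 0.990). The antisense gene AL359644.1 (ENSG00000227355) overlaps the span of STOM on the opposite strand, but not its exons. The first of its exons beyond the end of STOM begins 187 bases from that end. AL359644.1 had 0 counts in all 6 libraries.

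STOML1 faces PML, which encodes the scaffold of PML nuclear bodies, across a gap in which the first PML exon begins 51 bases from the end of STOML1. PML was named after its values were seen. It was at 17.4 ± 0.661 CPM on LN-521 and 15.7 ± 0.0960 CPM on the mixed coating (SD, n = 3 each). Its log2 fold change was -0.15 ± 0.09 (SE; edgeR adjusted p = 0.473), the same sign as STOML1, and neither passed the threshold.

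Genes around the family were then read from 6 lists with 55 genes in all, of which 47 passed the filter. None of the 47 passed the threshold in edgeR's test, where the share over all genes was 2.53%. An unadjusted p under 0.05 was reached by 7 of the 47 and by 2561 of all 17608 genes. DESeq2 called 1 of the list genes, SLC2A1, and limma on the authors' TPM none. The median log2 fold change of the 47 genes was -0.0066, beside -0.0011 over all genes tested, and single genes ranged from -0.48 to 0.41.

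The other genes with an SPFH domain, 6 of 7 tested, stayed within a narrow range from -0.19 to 0.02. PHB1 and PHB2, the prohibitins that scaffold the inner mitochondrial membrane, were the most abundant. PHB1 was at 153 ± 12.6 and 143 ± 4.86 CPM and PHB2 at 208 ± 18.0 and 211 ± 7.29 CPM (SD, n = 3 each, LN-521 first). FLOT1, encoding the raft protein flotillin-1 and named after its values were seen, was at -0.19 ± 0.06 (SE; edgeR adjusted p = 0.144), and passed without LN-521 replicate 1 alone among the alternatives.

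Among channels and transporters that stomatin proteins bind or modulate, 7 of 10 were tested, from -0.41 to 0.11. SLC2A1, which encodes GLUT1, had 17307, 22858 and 19957 counts on LN-521 and 14370, 16339 and 16333 on the mixed coating. In CPM this was 805 ± 52.8 and 705 ± 24.2 (SD, n = 3 each), and the wells did not overlap. The log2 fold change was -0.19 ± 0.06 (SE; edgeR adjusted p = 0.0842). It passed the threshold in 6 alternatives, among them DESeq2 (-0.19, DESeq2 adjusted p = 0.0178), the replicate block (-0.19, edgeR adjusted p = 0.0361) and the fit without LN-521 replicate 1 (-0.24, edgeR adjusted p = 0.00268). Over all alternatives its sign was the opposite of that of STOM. PIEZO1, a mechanically gated channel, had means of 44.7 ± 6.54 and 44.2 ± 2.36 CPM (SD, n = 3 each; edgeR adjusted p = 0.957). PIEZO2, of the same kind and named after its values were seen, was lower in level at 6.95 ± 0.107 and 5.22 ± 0.432 CPM (SD, n = 3 each), and the wells did not overlap. Its log2 difference of -0.41 ± 0.13 (SE) did not pass (edgeR adjusted p = 0.110). It passed with the GC correction, but not with the GC correction and the replicate block. The acid-sensing channel genes ASIC2, ASIC3 and ASIC4 were tested at means of at most 1.37 CPM, and ASIC1 was not tested.

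The 10 genes of the mitochondrial list, partners and proteases around STOML2, were all tested and lay closest to 0, from -0.08 to 0.08. OPA1, the fusion GTPase of the inner membrane, was at 245 ± 12.02 and 240 ± 9.41 CPM, and the protease gene YME1L1 at 201 ± 10.0 and 205 ± 2.68 CPM (SD, n = 3 each, LN-521 first). The edgeR adjusted p was 0.861 for OPA1 and 0.870 for YME1L1. None of the 10 reached an unadjusted p under 0.05.

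The sterol and late endosome list, set beside STOML1, had all 8 genes tested, from -0.15 to 0.13. HSD17B4, a peroxisomal enzyme that shares the sterol carrier domain with STOML1, was at 301 ± 17.4 and 273 ± 5.57 CPM (SD, n = 3 each), and its log2 difference was -0.15 ± 0.05 (SE; edgeR adjusted p = 0.208). With a correction for GC content it was -0.19 and passed (edgeR adjusted p = 0.0128). HSD17B4 passed with that correction only, alone and with the replicate block. Its log2 difference ran from -0.23 to -0.14 over the alternatives with all libraries. Leaving out each library gave -0.17 to -0.10. LAMP1, a lysosomal membrane protein, had means of 104 CPM on both coatings (edgeR adjusted p = 0.976).

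The caveolae list had 6 of 8 genes tested. CAVIN1, a coat protein of caveolae, was at 89.1 ± 5.39 and 93.0 ± 4.36 CPM and PACSIN2, a membrane-bending protein, at 75.4 ± 1.45 and 69.6 ± 4.70 CPM (SD, n = 3 each). Their edgeR adjusted p was 0.719 and 0.429. CAV1, a caveolin named after its values were seen, was low at 6.08 ± 0.229 and 4.36 ± 0.242 CPM (SD, n = 3 each). Its log2 fold change of -0.48 ± 0.13 (SE) did not pass (edgeR adjusted p = 0.0711), but did with the GC correction. CAV2, another caveolin named after its values were seen, was at 3.33 ± 0.327 and 3.41 ± 0.302 CPM (SD, n = 3 each). The CAV2 log2 fold change was 0.04 ± 0.17 (SE; edgeR adjusted p = 0.948).

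The red cell membrane skeleton, the setting in which stomatin was found, had 10 of 12 genes tested, with 6 above and 4 below 0. The spectrins SPTBN1 and SPTAN1, which non-erythroid cells also use, were the most abundant. SPTBN1 was at 771 ± 15.8 and 787 ± 3.99 CPM and SPTAN1 at 328 ± 18.6 and 345 ± 14.7 CPM (SD, n = 3 each). The edgeR adjusted p was 0.831 and 0.593.

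**Figure D3:**
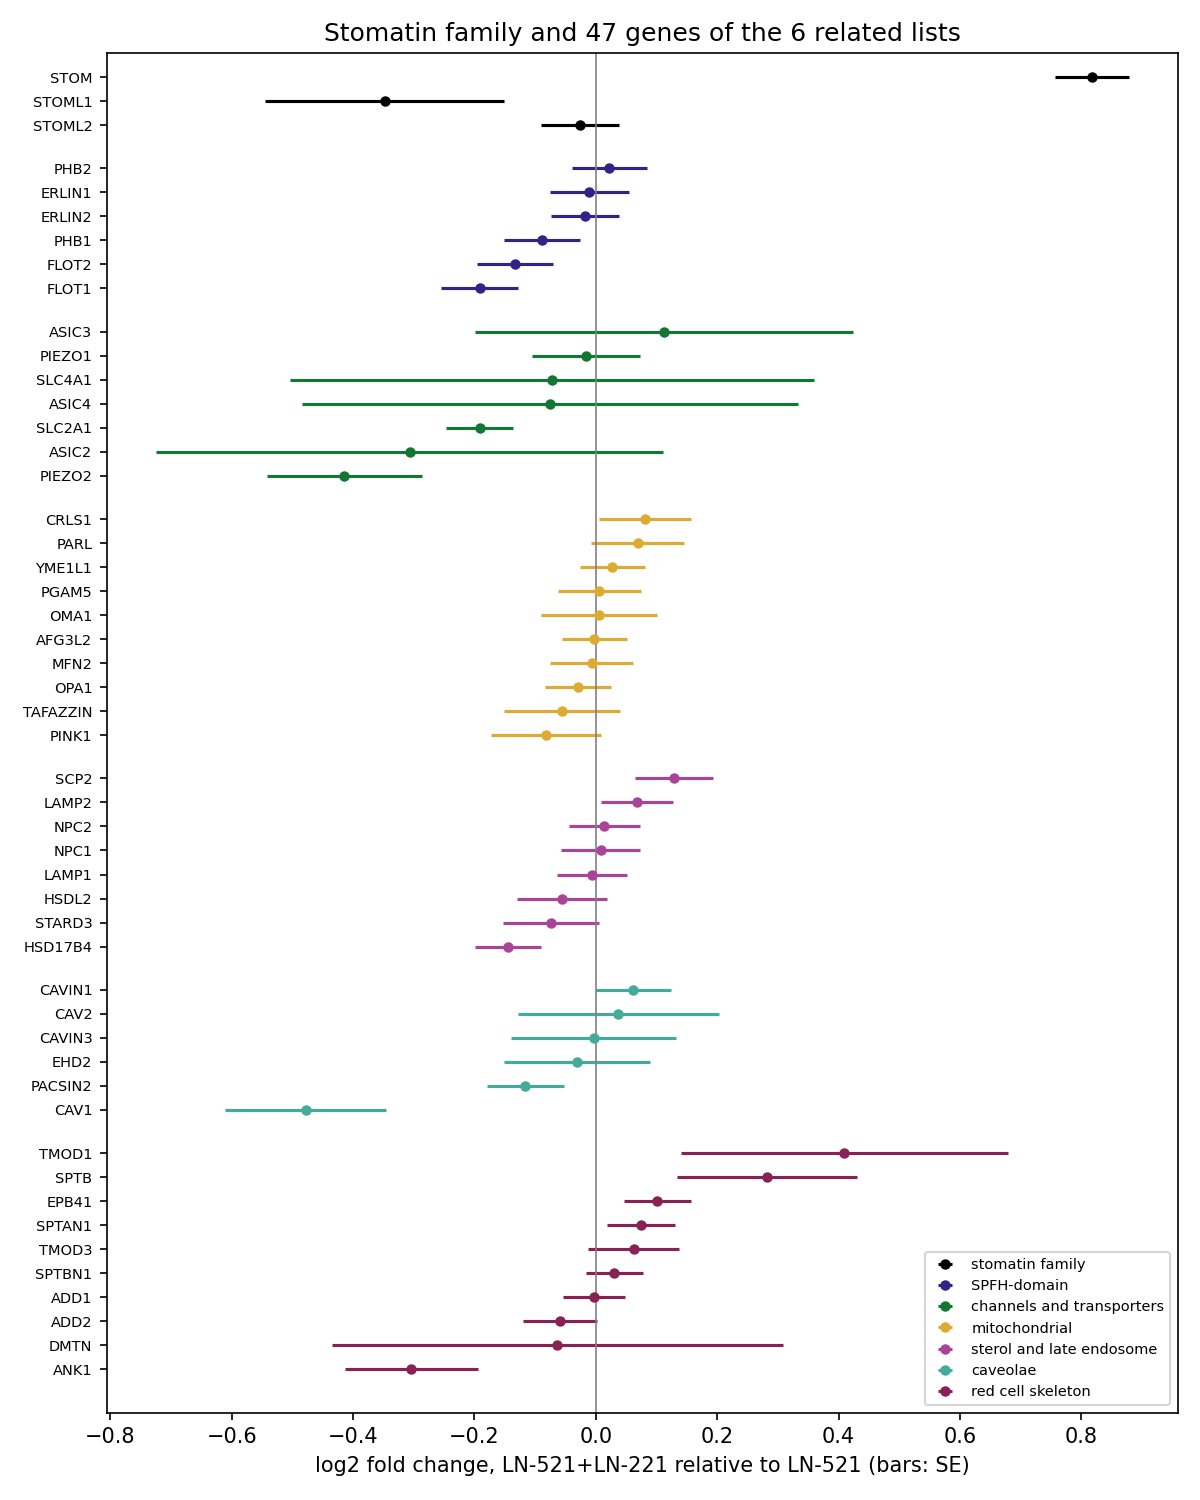
Log2 fold change of mixed coating over LN-521 with its SE (edgeR fit on 3 wells a coating) for the 3 tested members and the 47 tested genes of the 6 lists, coloured by list. STOM, chosen for its difference, lies at 0.82, to the right of all 47 list genes, which range from -0.48 to 0.41.

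Markers of cell types were read in the same libraries. The 7 pluripotency markers, POU5F1, NANOG, SOX2, LIN28A, DPPA4, L1TD1 and TDGF1, were all expressed and summed to 2491 to 2785 TPM on LN-521 and 2367 to 2569 TPM on the mixed coating. Of the 7, 4 passed the threshold, where 2.53% of all genes did: LIN28A rose by 0.23 on the log2 scale, and NANOG (-0.73), TDGF1 (-0.65) and POU5F1 (-0.36) fell. Erythroid markers summed to 2.83 to 3.40 TPM on LN-521 and 1.48 to 1.93 TPM on the mixed coating, with none called in either direction, and HBB had 0 counts in all libraries. The sum rests mainly on HBA1, with 0 to 22 counts per library, and HBA2, with 2 to 42. Endothelial markers summed to 3.67 to 5.24 and 4.41 to 4.88 TPM, with PECAM1, CDH5 and VWF under 1 TPM. VWF had 32 to 44 counts on LN-521 and 45 to 88 on the mixed coating and was the 1 endothelial marker called higher. Fibroblast markers summed to 76.8 to 89.8 and 81.6 to 96.8 TPM, from COL1A1 and COL1A2, with LUM at 0 counts. Mesoderm markers summed to 24.9 to 32.1 and 21.1 to 25.6 TPM, with 4 of 5 under 1 TPM and KDR called lower. Endoderm markers summed to 0.61 to 1.33 and 0.81 to 0.98 TPM. Neural markers summed to 57.4 to 66.0 and 64.9 to 65.6 TPM, with PAX6, SOX1 and ZIC1 under 1 TPM and ZIC1 called higher. The part of these changes in the STOM difference was not tested.

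The genes whose level over the 6 wells was most like that of STOM were found by Pearson correlation of log2 CPM, among 10033 genes with a symbol and a mean of at least 10 CPM. The wells form 2 groups by coating, so a high value mainly reflects a shared difference between them, and no p is given. The 5 highest were CITED2 (r = 0.998), CTTNBP2 (r = 0.998), NAALAD2 (r = 0.996), LRATD2 (r = 0.995) and PHKB (r = 0.995). Likeness of pattern did not mean likeness of size. NAALAD2, at 7.94 ± 0.425 and 13.8 ± 0.494 CPM, differed by 0.79 on the log2 scale, close to STOM, whereas PHKB, at 78.9 ± 0.579 and 87.6 ± 1.22 CPM, differed by 0.15 (SD, n = 3 each). CITED2, a transcriptional co-regulator that limits hypoxia-inducible factor, was at 129 ± 5.13 CPM on LN-521 and 195 ± 5.15 CPM on the mixed coating (SD, n = 3 each). CTTNBP2, at 38.4 and 46.3 CPM, and LRATD2, at 64.1 and 96.7 CPM, differed by 0.27 and 0.59 on the log2 scale. The CTTNBP2 difference was smaller in the authors' TPM, at 0.14 with log2(TPM + 1) and 0.16 with log2(TPM + 0.1).

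The 3 genes most opposite to STOM were WEE1 (r = -0.997), NPTX1 (r = -0.997) and PACS1 (r = -0.996). NPTX1, which encodes a neuronal pentraxin, was at 308 ± 17.7 CPM on LN-521 and 162 ± 12.3 CPM on the mixed coating (SD, n = 3 each), a log2 difference of -0.92. WEE1, the kinase that holds back entry into mitosis, was at 151 ± 2.70 and 122 ± 3.17 CPM (SD, n = 3 each), a log2 difference of -0.31. PACS1, a sorting protein of the trans-Golgi network, was at 16.6 ± 0.335 and 14.0 ± 0.154 CPM (SD, n = 3 each), a log2 difference of -0.25. The genes at both ends were picked for a pattern that splits these same wells by coating. Their differences between the coatings are therefore a description and carry no test. PHKB and PACS1 did not pass the threshold (edgeR adjusted p = 0.199 and 0.177).

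**Figure D4:**
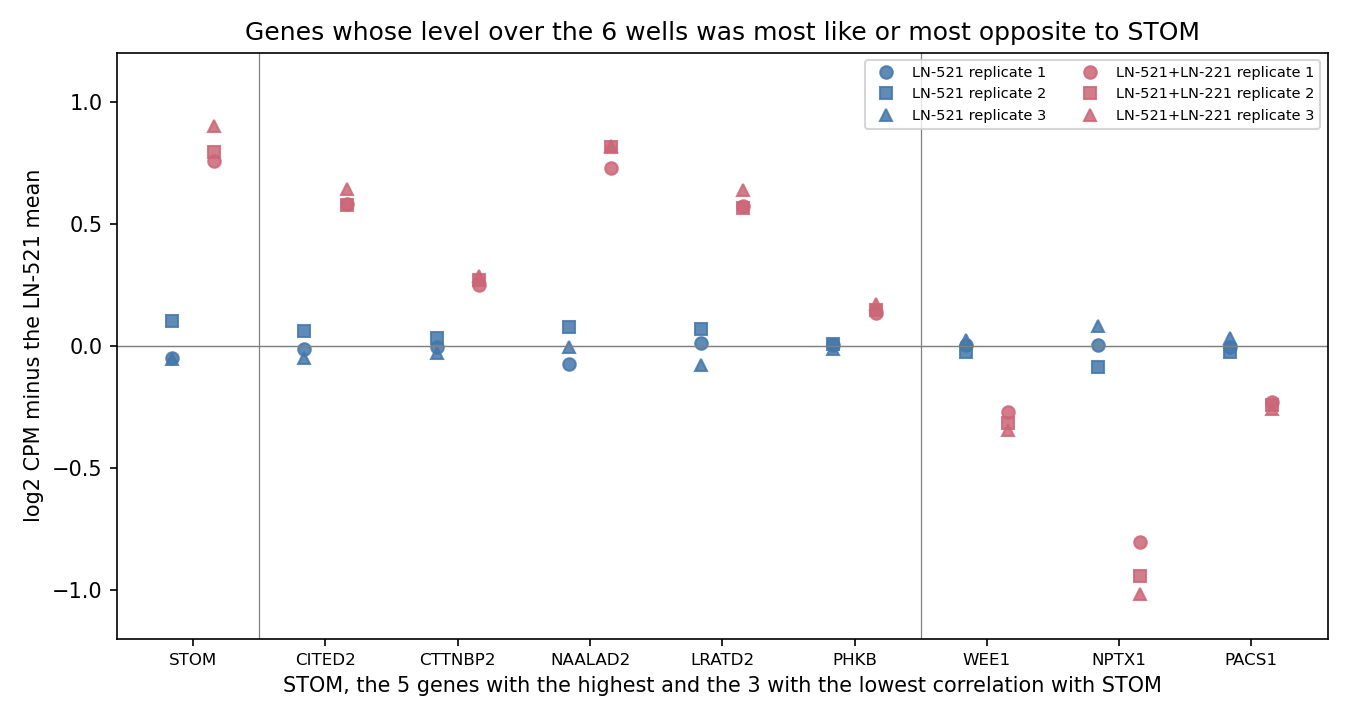
Log2 CPM of each well minus the gene's LN-521 mean for STOM, the 5 genes with the highest and the 3 with the lowest correlation with it over 6 wells (blue: LN-521; red: mixed coating; symbols: replicate number). The separation of the coatings runs from 0.15 for PHKB to 0.82 for STOM among the upper genes and reaches -0.92 for NPTX1.

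**Figure D5:**
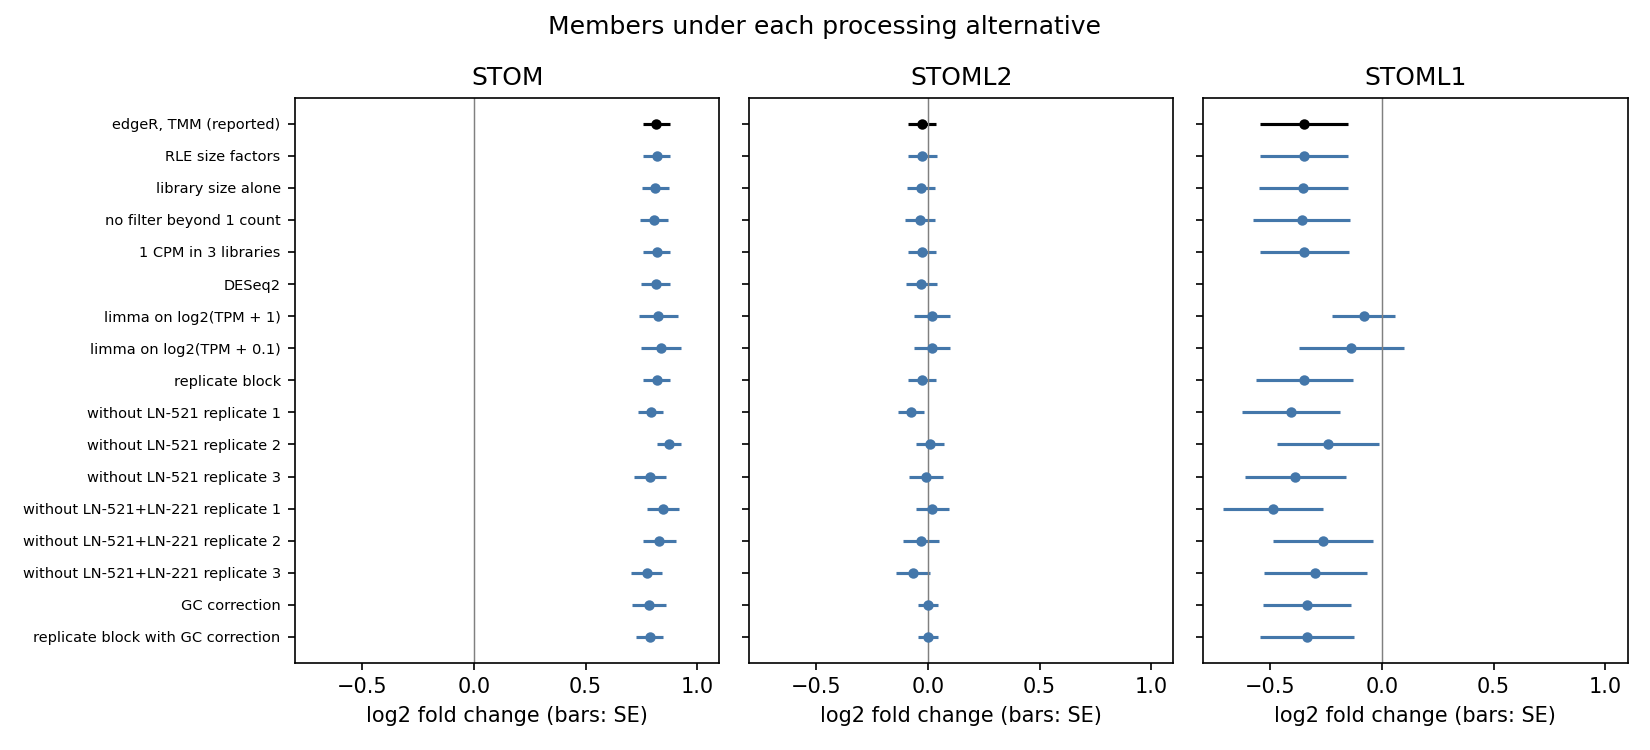
Log2 fold change of mixed coating over LN-521, with its SE, for the 3 tested members under each processing alternative (rows); black is the reported fit. STOM stays between 0.77 and 0.87, STOML2 lies on both sides of 0 and STOML1 lies below 0 throughout.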

How the data were processed

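Gene expression was measured by paired 150 bp sequencing of stranded total RNA libraries from 6 wells, 3 for each coating. The authors deposited estimated counts per gene and TPM per gene, unnormalized and length-normalized respectively. The submitters' processing notes name cutadapt, STAR 2.5.2b, RSEM 1.2.31 and the build hg38. The annotation and whether counting used strand are not given in the sources used here. Library totals were 20606494 to 26836727 counts. Symbols were matched to 68.0% of the gene IDs.

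Counts were rounded, filtered by edgeR's filterByExpr (minimum count 10), scaled by TMM and compared with edgeR's quasi-likelihood test (robust fit, edgeR 4.0.16 in R 4.3.3) over all 6 libraries, with Benjamini-Hochberg adjustment over all genes tested and a threshold of 0.05. An SE is the absolute log2 fold change divided by the square root of F. Intervals are 95% from the same fit. The alternatives were RLE size factors, library size alone, no filter beyond 1 count, 1 CPM in 3 libraries, DESeq2 1.42.0, limma 3.58.1 on log2 TPM with a pseudocount of 1 or 0.1 (a scale that understates changes of low genes; 1 TPM or more in at least 3 libraries), a replicate block, and each library left out. A correction for GC content (lowess per library, span 0.3, with and without the block) was chosen after seeing the data. The scripts were tested on simulated data.

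The members and gene lists were chosen with earlier results of these data known. Named genes are the members, list genes past the threshold and the 2 most abundant tested genes of each list, the 2 nearest protein-coding genes on each side of STOM, and the 5 and 3 genes with the highest and lowest correlation with STOM (log2 CPM with a prior count of 2). Any other gene was chosen after its values were seen. Promoters, gene order and CpG come from RefSeq, positions from GENCODE 29. The labels number the wells of each coating as triplicates of 1 cell line, so p-values measure the spread between wells. No 2 libraries agreed within sampling noise (chi-square per degree of freedom at least 2.89).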

Additional observations from a re-analysis of the deposited data

How the results depend on the processing

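The STOM difference, by which the members were chosen, moved by less than its within-group SD of log2 CPM (0.082) in all 16 alternatives. Leaving out 1 well could hardly move it by more, so those fits are a description and carry no test. STOML1 kept its sign and stayed short of the threshold in the 15 that gave it an adjusted p, as DESeq2 gave none. STOML3 could not be fitted. The STOML2 log2 fold change turned to 0.019 with log2(TPM + 1) and log2(TPM + 0.1), to 6.2e-04 with the GC correction and to 1.0e-04 with the GC correction and the block. Leaving out each library gave -0.074 to 0.020 for STOML2, 0.77 to 0.87 for STOM and -0.49 to -0.24 for STOML1. The sign also turned for RAB14 (-0.0013 with library size alone, -0.0049 without a filter, -0.037 and -0.039 with log2(TPM + 1) and log2(TPM + 0.1), -0.038 with the GC correction, alone and with the block) and, in the order log2(TPM + 1), log2(TPM + 0.1), GC correction, GC correction with the block, for DAB2IP (0.025, 0.029, 0.047, 0.047), LAMP1 (0.035, 0.036, 0.0031, 0.0037) and PIEZO1 (0.089, 0.098, 0.047, 0.049). YME1L1 turned to -0.0097 and -0.0099 with the GC correction alone and with the block. Leaving out each library gave -0.036 to 0.067 for RAB14, -0.037 to 0.069 for DAB2IP, -0.033 to 0.034 for LAMP1, -0.055 to 0.010 for OPA1, -0.0031 to 0.066 for YME1L1, -0.085 to 0.11 for PIEZO1 and -0.042 to 0.084 for PHB2. Among the other named genes, the threshold was newly passed 7 times with all libraries (SLC2A1 and HSD17B4) and once when a library was left out (SLC2A1). It was no longer passed with both TPM scales for CTTNBP2, LRATD2 (0.52 and 0.55, from 0.59) and WEE1 (-0.26 and -0.27, from -0.31). CTTNBP2 also missed it without LN-521 replicate 3 and without LN-521+LN-221 replicates 1, 2 and 3 (edgeR adjusted p 0.107 to 0.181), where its log2 fold change was 0.25 to 0.28, beside 0.27 with all libraries. CTTNBP2, LRATD2 and WEE1 were picked for their correlation with STOM over these same wells, so their calls are a description.

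The whole-table count of 446 was 718 without a filter, 62 and 61 with log2(TPM + 1) and log2(TPM + 0.1), 931 with the GC correction and 1036 with the GC correction and the block. Leaving out each library gave 194 to 1179 genes: 1179 without LN-521 replicate 1, 201 without LN-521 replicate 3, and 290, 198 and 194 without LN-521+LN-221 replicates 1, 2 and 3. The list count of 0 was 1 without a filter, with DESeq2 and with the replicate block, 4 with the GC correction and 3 with the GC correction and the block, and 0 to 2 when a library was left out, with 2 (FLOT1 and SLC2A1) without LN-521 replicate 1. The replicate block gave 646 genes in all. Deviations of same-numbered wells correlated at 0.047, -0.022 and 0.009, and those of wells with different numbers at -0.060 to 0.057. Values this small cannot decide whether the numbers pair the wells. For all of these, the cause was not tested.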
